A study of Homo sapiens with 4 samples.

Results

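The genes described here are the ligands and receptors of axon guidance: 66 of the 19122 protein-coding genes on chromosomes 1 to 22 in the RefSeq gene table. The rule that picked them used symbols alone and no measured value, but it was set with earlier results of these data known. They comprise 20 semaphorins of classes 3 to 7, 7 plexins, 2 neuropilins, 14 Eph receptors, 7 ephrins, 3 SLIT genes, 4 ROBO genes, 4 netrins, and DCC with the 4 UNC5 genes (5 genes counted together). The question was where BAF45D, the DPF2 product and a component of BAF, a complex that remodels chromatin, sat at these genes in neural stem cells and in the embryonic stem cells they came from.

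CUT&Tag, in which an antibody tethers a transposase to DNA beside its target, was done with a rabbit antibody to BAF45D in 2 libraries of spinal cord neural stem cells (NSC1 and NSC2) and 2 libraries of embryonic stem cells (ESC1 and ESC2). All 4 came from H9, an established human embryonic stem cell line, so they represent 1 genotype. The ESC were kept on Matrigel in mTeSR1. Per the labels, NSC arose through 10 days in N2B27 with LDN-193189, SB431542, CHIR-99021, FGF2, FGF8 and DAPT; they then grew with SB-431542, CHIR-99021 and Hh-Ag 1.5, and finally with FGF2 and EGF, with the ROCK inhibitor Y-27632 at passages. The labels do not say that libraries of a cell type came from separate cultures, so their spread may be technical. In these bulk libraries, fewer cells of a type and less binding per cell cannot be told apart.

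Guidance ligands steer growing axons by attraction or repulsion. Netrin-1 and SLIT proteins are made at the floor plate of the spinal cord. Commissural axons read netrin through DCC, a receptor that mediates attraction. UNC5 receptors turn the response to netrin to repulsion, while ROBO receptors read SLIT as a repellent. Secreted class 3 semaphorins act through neuropilins paired with plexins, and other semaphorins bind plexins directly. Ephrins are tethered to the membrane of one cell and bind Eph receptor tyrosine kinases on the next, so that contact itself carries the signal. These genes are known for their part in axon growth and in cell migration, and the cells profiled here are labelled as stem cells, not axon-bearing neurons.

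The 4 peak lists held 28887 intervals in NSC1 and 23942 in NSC2, against 4054 in ESC1 and 12159 in ESC2, from 5566407, 5377831, 20734829 and 18953543 tags. NSC libraries thus had more peaks from fewer tags, and ESC1 had the shortest list. The part of list length and depth in the counts below was not tested beyond the recounts at equal list length. Among markers, 6, 6, 1 and 1 of 10 neural stem cell genes had a peak at a gene end in NSC1, NSC2, ESC1 and ESC2, and 2, 2, 3 and 5 of 9 pluripotency genes had one. Over all coding autosomal genes the share was 43.5%, 38.7%, 6.8% and 23.2% in the same order. NES, NKX6-1, OLIG2, SOX1 and VIM were called in both NSC libraries alone. SOX2, which is in both lists, and LIN28A were called in all 4 libraries. FABP7, HES5, MSI1 and PAX6 of the neural stem cell genes had none at their ends in any library. The same held for LIN28B, NANOG, POU5F1 and ZFP42 of the pluripotency genes. Neuron markers were called at 3, 2, 0 and 2 of 7 genes in the same order, fibroblast and mesenchyme markers at 1, 2, 0 and 1 of 8, and endoderm markers at 0 of 5 in every library. Their part in the results below was not tested.

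The RefSeq promoter window runs from 250 bases before to 50 bases after the annotated start. Of the 56 members with such a window, 13 were overlapped by a peak in NSC1 (39.0% of the windows of all coding autosomal genes) and 11 in NSC2 (34.5%), against 0 in ESC1 (5.48%) and 7 in ESC2 (19.5%). In both NSC libraries it was 9 members, beside 31.1% of all windows. The windows of 6 of those 9 are printed from the RefSeq table of GRCh38.p14, 5′ to 3′ on the gene's strand. They show the kind of sequence that BAF45D peaks covered: EPHA7, EPHB3 and SEMA4F had a peak there in ESC2 too, SLIT2 and EPHB4 had theirs in NSC libraries alone, and SEMA3E, also with NSC peaks alone, had the fewest CpG of the 8 windows that ranked highest among those 9. Capitals mark, on either strand, the GC-box core GGGCGG, the CCAAT box, the TATA-box letters TATAAA, the E-box CACGTG and the SOX-type motif ACAAT, and letters that belong to 2 overlapping matches are marked once, as where GGGCGG on the reverse strand runs into CCAAT in EPHB3.
EPHA7 promoter, chr6:93419510-93419809, minus strand: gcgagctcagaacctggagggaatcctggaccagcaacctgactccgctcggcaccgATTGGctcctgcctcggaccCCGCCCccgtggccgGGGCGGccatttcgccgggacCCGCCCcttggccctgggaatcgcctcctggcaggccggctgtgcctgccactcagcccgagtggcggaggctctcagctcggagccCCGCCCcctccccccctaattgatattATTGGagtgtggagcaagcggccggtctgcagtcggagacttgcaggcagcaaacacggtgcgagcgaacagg
EPHB3 promoter, chr3:184561535-184561834, plus strand: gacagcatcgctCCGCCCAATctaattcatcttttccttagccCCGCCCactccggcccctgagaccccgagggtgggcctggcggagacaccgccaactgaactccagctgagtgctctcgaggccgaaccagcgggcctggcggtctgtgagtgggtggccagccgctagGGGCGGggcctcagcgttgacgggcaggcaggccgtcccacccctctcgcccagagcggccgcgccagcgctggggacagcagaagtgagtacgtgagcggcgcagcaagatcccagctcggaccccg
SEMA4F promoter, chr2:74653997-74654296, plus strand: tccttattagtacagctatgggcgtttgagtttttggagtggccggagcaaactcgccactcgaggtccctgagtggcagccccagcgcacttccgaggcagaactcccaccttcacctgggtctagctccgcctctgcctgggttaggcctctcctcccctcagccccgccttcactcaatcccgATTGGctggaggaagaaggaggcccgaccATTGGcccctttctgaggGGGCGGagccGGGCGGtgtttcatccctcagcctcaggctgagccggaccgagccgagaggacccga
SLIT2 promoter, chr4:20251655-20251954, plus strand: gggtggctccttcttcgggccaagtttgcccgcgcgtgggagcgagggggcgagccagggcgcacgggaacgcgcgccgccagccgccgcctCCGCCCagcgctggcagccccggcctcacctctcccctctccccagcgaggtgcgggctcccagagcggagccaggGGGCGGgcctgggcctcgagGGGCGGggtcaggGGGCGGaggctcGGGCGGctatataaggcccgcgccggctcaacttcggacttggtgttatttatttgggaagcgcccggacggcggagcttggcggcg
EPHB4 promoter, chr7:100827474-100827773, minus strand: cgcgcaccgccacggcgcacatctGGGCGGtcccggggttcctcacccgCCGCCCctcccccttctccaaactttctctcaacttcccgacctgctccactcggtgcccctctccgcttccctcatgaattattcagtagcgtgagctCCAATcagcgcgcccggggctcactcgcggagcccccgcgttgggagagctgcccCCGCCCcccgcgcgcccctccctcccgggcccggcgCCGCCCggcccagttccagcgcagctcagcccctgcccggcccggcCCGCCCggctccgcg
SEMA3E promoter, chr7:83649090-83649389, minus strand: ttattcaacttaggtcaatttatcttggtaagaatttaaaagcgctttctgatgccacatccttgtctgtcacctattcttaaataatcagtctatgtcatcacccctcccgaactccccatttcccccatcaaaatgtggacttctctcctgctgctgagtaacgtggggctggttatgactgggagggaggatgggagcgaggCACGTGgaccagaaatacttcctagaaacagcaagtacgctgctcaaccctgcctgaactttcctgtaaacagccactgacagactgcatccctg

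In these windows GGGCGG occurred 4 times in EPHA7, 3 in EPHB3, 2 in SEMA4F, 5 in SLIT2 and 5 in EPHB4. It was present in 58.9% of the 15100 coding-gene promoter windows in the table. CCAAT occurred 2 times each in EPHA7 and SEMA4F and 1 time each in EPHB3 and EPHB4, against 36.0% of all windows with at least 1. The SEMA3E window held neither, and its 1 CACGTG, a palindromic E-box that is also a match to CANNTG (64.3% of all windows), occurred in 8.77% of all windows. TATAAA (9.71% of all windows) and ACAAT (21.0%) occurred in none of the 6. SLIT2 and EPHB4 had 36 CpG each and a GC content of 74.3%, EPHB3 had 26 CpG and 69.0%, EPHA7 had 24 and 68.3%, SEMA4F had 17 and 63.0%, and SEMA3E had 6 and 47.3%. The median was 26 CpG in the 9 windows overlapped in both NSC libraries, 21 in the other members and 22 in all coding genes. A match of letters describes the window and not a factor bound to it.

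A smaller share of guidance genes than of all coding genes had a peak at a gene end, in every library. A peak lay within 1 kb of either end for 22 of the 66 members in NSC1, 33.3% beside 43.5% of all coding autosomal genes. The number was 14 in NSC2, 21.2% beside 38.7%, against 0 in ESC1 (6.8% of all genes) and 8 in ESC2, 12.1% beside 23.2%. In both NSC libraries it was 12 members, 18.2%, beside 35.2% of all genes. The members' share was below that of all genes in each length class: 3 of 28 members under 50 kb (33.0% of all such genes), 3 of 17 from 50 to 200 kb (40.9%), and 6 of 21 over 200 kb (36.0%) were called in both NSC libraries. No peak was found at the ends of 41 members, 62.1%, beside 50.5% of all genes. These are counts over genes without a test of the list against other genes.

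With the strand known for 56 members, 10 had a peak at the gene's start in both NSC libraries, 17.9%, beside 36.2% of all genes with a strand. By library, starts were called in 16 members in NSC1 (44.5% of all genes with a strand), 12 in NSC2 (39.6%), 0 in ESC1 (6.9%) and 7 in ESC2 (23.6%). The far end was called in both NSC libraries for 2 members (2.69%): EFNA1, a ligand of EphA receptors whose peak also lies within 1 kb of an end of SLC50A1, and SEMA5A, a transmembrane semaphorin with thrombospondin repeats. For 12 of the 56, the RefSeq promoter lay over 1 kb inside the outermost start of the gene, so a start elsewhere was not counted as a gene end.

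The strength of a peak is the authors' own −log10 q against the background of its library, and it was compared only within a list. At member ends the median was 5.06 in NSC1, 5.61 in NSC2 and 4.91 in ESC2, beside 7.86, 7.17 and 6.90 over the ends of all genes called in those lists. The median member call stood at percentile 46.8 of the list in NSC1, 53.5 in NSC2 and 56.6 in ESC2, against 68.7, 66.3 and 71.4 for all genes called. The typical guidance gene-end call thus ranked lower in its list than the typical gene-end call, in those 3 lists.

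Among the members, the strongest gene-end peak of NSC1 was at an Eph receptor. EPHA7, a receptor for ephrin-A ligands, reached 15.1 in NSC1 and 13.7 in NSC2, against 5.72 in ESC2 and no call in ESC1. EPHB3, a receptor for ephrin-B ligands, reached 12.8 and 9.51 in NSC1 and NSC2, against 8.54 in ESC2 and no call in ESC1. EPHB4, the EFNB2 receptor known from vessel formation, had 9.33 and 5.02 in NSC1 and NSC2 and no call in either ESC library. The EPHB4 peak also lay within 1 kb of an end of SLC12A9. EPHA3, another ephrin-A receptor, had 9.72 in NSC1 and 1.64 in NSC2 and no ESC call, but these were 2 separate peaks, at chr3:89107416-89107713 in NSC1 and chr3:89107937-89108181 in NSC2 (hg38). EPHA5 was called in NSC2 at 2.98 and in ESC2 at 4.11.

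Semaphorins gave gene-end calls in both cell types. SEMA4F, a transmembrane class 4 semaphorin, had 14.4 and 4.34 in NSC1 and NSC2, against 16.0 in ESC2, the highest value at any member's end in that library. SEMA5A had 11.9 and 14.4 in NSC1 and NSC2 and no ESC call. SEMA3E, the secreted ligand of PLXND1, had 3.40 and 3.86 in NSC1 and NSC2 and no ESC call. SEMA6A, a transmembrane ligand of class A plexins, had 4.41 in NSC1, no call in NSC2, and 10.0 in ESC2. SEMA4F and SEMA6A were therefore called in ESC2 and at least 1 NSC library.

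Among the other families, SLIT2, the repellent read by ROBO receptors, had gene-end peaks of 8.05 and 11.8 in NSC1 and NSC2 and none in ESC. EFNA1 had 9.62 and 10.5 in NSC1 and NSC2 and no ESC call. NRP2, the neuropilin that binds SEMA3C and SEMA3F, had 5.12 and 4.52 in NSC1 and NSC2, without an ESC call. PLXNA2, a class A plexin, had 1.87 and 2.91 in NSC1 and NSC2 in a region that both shared, a separate NSC1 peak of 5.01, and no ESC call. UNC5C, a repulsive netrin receptor, had 2.29 and 7.16 in NSC1 and NSC2 in a region without an ESC call. A separate UNC5C region within the same end window had 2.08 in NSC2, against 3.30 in ESC2. PLXNB1, the receptor of SEMA4D, had 3.48 in NSC1 and 2.46 in ESC2 at different peaks, and none in the other two libraries. A further 10 members were called at an end in 1 library alone, 8 of them in NSC1 at 1.78 to 9.03, EPHB1 in NSC2 at 6.19 and SEMA4G in ESC2 at 3.37.

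In all, 8 members had a gene-end peak in each NSC library but in neither ESC library, 12.1%, beside 16.4% of all coding genes: EFNA1, EPHA3, EPHB4, NRP2, PLXNA2, SEMA3E, SEMA5A and SLIT2. None was called in both ESC libraries alone (0.251% of all genes), and none in all 4 libraries (6.01%). Without NSC2 the first count was 16 and without ESC2 it was 12, and without ESC1 the number called in all remaining libraries was 4. With all lists limited to the 4054 strongest intervals, 1 member was called in NSC alone, EPHA7, which was none of the 8.

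**Figure D1:**
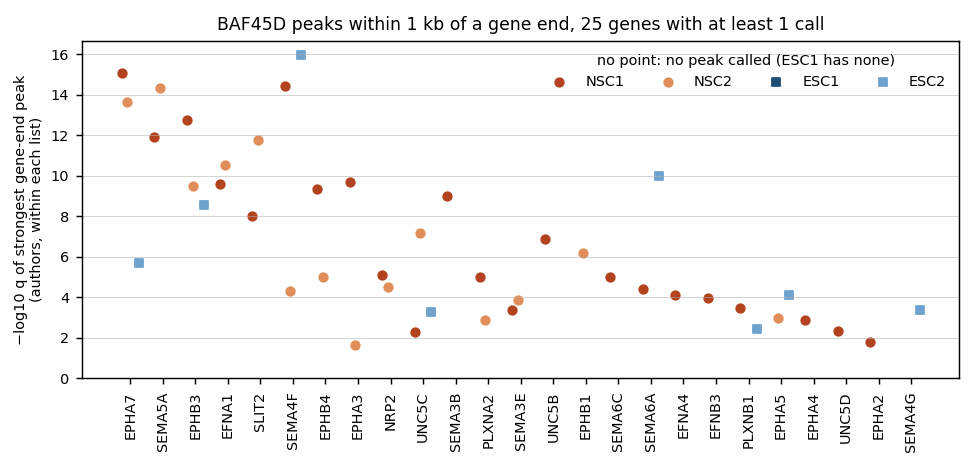
Strength of the strongest peak within 1 kb of a gene end, as the authors' −log10 q (vertical axis), for the 25 members with such a peak in at least 1 library (horizontal axis). Each point is 1 library (NSC1, NSC2, ESC1 or ESC2) and a missing point is no call. EPHA7 had the highest value in NSC1 (15.1), SEMA5A in NSC2 (14.4) and SEMA4F in ESC2 (16.0), and ESC1 had no call.

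The peaks of guidance genes lay mostly inside the genes. Gene bodies, at 14.5 Mb of summed length, also made up most of the 15.8 Mb searched. A majority inside therefore does not show that the interior was favoured. Counting each peak once, the loci (gene with 10 kb on either side, 15.8 Mb in all) held 268 peaks in NSC1 and 201 in NSC2, against 13 in ESC1 and 59 in ESC2. Of these, 220 in NSC1 and 168 in NSC2 (82.1% and 83.6%) lay inside a gene over 1 kb from its ends, against 8 in ESC1 and 39 in ESC2 (61.5% and 66.1%). The start window took 21, 14, 0 and 7 peaks in NSC1, NSC2, ESC1 and ESC2, and the 10 kb flanks took 21, 17, 5 and 12. The files give no transcripts, so peaks inside genes were not assigned to exons or introns.

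Locus peaks averaged 234.5 ± 47.4 over the NSC libraries and 36.0 ± 32.5 over the ESC libraries (SD, n = 2 each). The ratio of these means was 6.51, while that of whole lists was 3.26. The lower NSC library had 3.41 times the locus peaks of the higher ESC library. The exact two-sided permutation p was 0.333, the smallest that 2 libraries against 2 can give. Without ESC2 the ratio was 18.0 and without ESC1 it was 3.97. With all lists at 4054 intervals the members held 27 and 28 peaks in NSC1 and NSC2, against 13 and 14 in the ESC libraries, so that the ratio was 2.04.

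Guidance loci took a larger share of the NSC lists than of the ESC lists. The share was 0.928% (95% Wilson interval 0.824 to 1.05) in NSC1 and 0.840% (0.732 to 0.963) in NSC2, against 0.321% (0.188 to 0.548) in ESC1 and 0.485% (0.376 to 0.625) in ESC2. Intervals cover counting error only and treat each peak as independent, although many lay in the same genes. They do not measure the spread between libraries, so they are not a test of the cell types. The loci of all coding genes took 68.1% and 68.4% of the NSC1 and NSC2 lists, against 61.5% and 70.1% of ESC1 and ESC2. Members are long, with a median of 80.3 kb beside 24.5 kb for all coding genes, and long genes shared the pattern. The loci of all 1340 coding genes over 200 kb took 22.8% and 22.4% of the NSC1 and NSC2 lists, against 13.6% and 15.1% of ESC1 and ESC2, and the ratio of peak numbers was 5.00. For the 21 members over 200 kb the ratio was 8.92, and for all coding genes it was 3.27. At equal list length it was 2.04 for the members, 1.58 for coding genes over 200 kb and 1.05 for all coding genes.

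**Figure D2:**
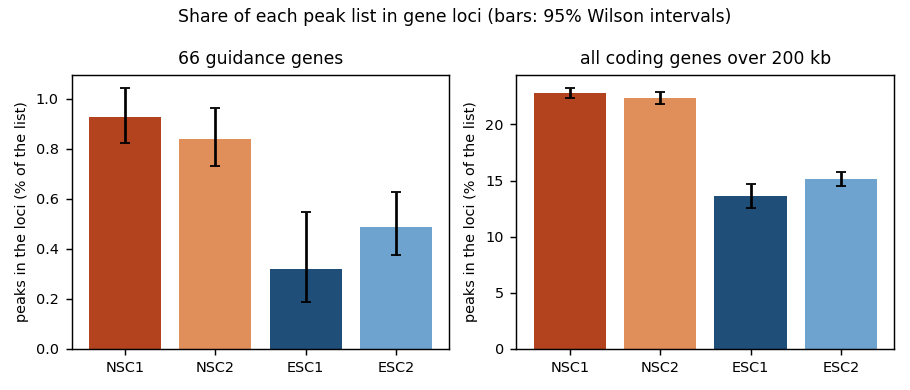
Share of each library's peak list, in percent, that overlaps the loci of the 66 guidance genes (left) and of the 1340 coding genes over 200 kb (right), with 95% Wilson intervals; the vertical axes differ. Guidance loci took 0.928% and 0.840% of the NSC1 and NSC2 lists, against 0.321% and 0.485% of the ESC1 and ESC2 lists.

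The locus peaks were of middling strength. The median −log10 q was 5.26 in NSC1 and 5.06 in NSC2, against 2.34 in ESC1 and 3.74 in ESC2. The median peak stood at percentiles 49.3 and 48.4 of the NSC1 and NSC2 lists, against 20.0 and 42.6 in ESC1 and ESC2. The strongest 10% of each list held 19 and 14 of the locus peaks in NSC1 and NSC2 (7.09% and 6.97%), against 0 in ESC1 and 1 in ESC2 (1.69%). Of the NSC1 locus peaks 155, 57.8%, overlapped an NSC2 peak, beside 60.9% of the whole NSC1 list. Of the NSC2 locus peaks 152, 75.6%, overlapped an NSC1 peak, beside 74.6% of that list. Members were thus found again in the other NSC library at about the rate of the list. Of the 59 ESC2 locus peaks, 18 overlapped an NSC1 peak (30.5%, beside 38.6% of the list) and 17 an NSC2 peak (28.8%, beside 36.5%).

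Every family had more locus peaks in each NSC library than in each ESC library, as the lists themselves did. Semaphorins had 74 and 53 in NSC1 and NSC2, against 5 and 20 in ESC1 and ESC2. Eph receptors had 51 and 35 in NSC1 and NSC2, against 3 and 14 in ESC1 and ESC2, and ephrins had 22 and 15, against 1 and 8. DCC with the UNC5 genes had 45 and 35 in NSC1 and NSC2, against 2 and 5 in ESC1 and ESC2. SLIT and ROBO genes, ligands and receptors of one pathway, had few ESC peaks beside their NSC peaks. SLIT genes had 26 and 19 in NSC1 and NSC2, against 1 and 1 in ESC1 and ESC2, and ROBO genes had 24 and 27, against 0 and 4. Plexins had 13 and 9 in NSC1 and NSC2, against 0 and 4 in ESC1 and ESC2, neuropilins had 9 and 5, against 1 and 2, and netrins had 4 and 3, against 0 and 1. Per 100 kb of locus, flanks included, the mean number of NSC peaks was highest in ephrins (3.52) and neuropilins (2.24) and lowest in ROBO genes (0.843) and netrins (0.747). This order takes no account of gene length. Over all coding genes the median was 1.74 under 50 kb and 0.899 over 200 kb. The 7 ephrins sum to 385 kb, the 4 ROBO genes to 2944 kb and the 4 netrins to 389 kb.

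A locus peak was present in 56 members in NSC1, 84.8% beside 64.9% of all genes, and in 50 in NSC2, 75.8% beside 60.0%. It was present in 10 members in ESC1, 15.2% beside 15.5%, and in 37 in ESC2, 56.1% beside 44.1%. Both NSC libraries had one in 48 members, 72.7%, beside 55.6% of all genes. In 18 members, 27.3%, both NSC libraries but neither ESC library had a peak, beside 19.7% of all genes. Without ESC2 this number was 40, and at equal list length it was 7. By length it was 9 of 28 members under 50 kb (17.5% of such genes), 4 of 17 from 50 to 200 kb (25.8%) and 5 of 21 over 200 kb (20.8%). The members' share stood most above that of all genes in the class under 50 kb, at 32.1%. Of the 9 short members, 5 (EFNA1, EFNA2, EPHA1, SEMA4B and SEMA4C) had all their peak regions of both NSC libraries within 1 kb of another coding gene's end, at SLC50A1, at CIRBP and FAM174C, at ZYX, at GDPGP1 and at ANKRD39. ROBO3, which governs midline crossing of commissural axons, and ROBO4, the endothelial ROBO, are neighbours and owed their calls to 1 region that lies in both loci. The other members of the 18 were EFNB2, NTN4, PLXNA2, PLXNB2, PLXNC1, SEMA3D, SEMA5A, SEMA5B, SEMA6D, SLIT1 and SLIT2.

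Peak numbers in both NSC libraries were above those in both ESC libraries for 36 members, 54.5%, beside 30.8% of all genes. By length this was 11 of 28 members under 50 kb (23.8% of such genes), 9 of 17 from 50 to 200 kb (39.9%) and 16 of 21 over 200 kb (67.2%). The converse held for 1 member (0.967%): SEMA4A, a class 4 semaphorin, had no peak in NSC1 or NSC2, against 1 in ESC1 and 2 in ESC2. It was also the 1 member with a locus peak in both ESC libraries alone (0.706%), but the libraries shared no region there, and the ESC1 peak lay 7.08 kb outside SEMA4A at an end of LMNA. All 4 libraries had a locus peak in 7 members, 10.6%, beside 12.2% of all genes. No locus peak was found in any library for 3 members, beside 25.2% of all genes: EPHA10, an Eph receptor without kinase activity, NTN3, a netrin, and SEMA3G, a secreted class 3 semaphorin.

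**Figure D3:**
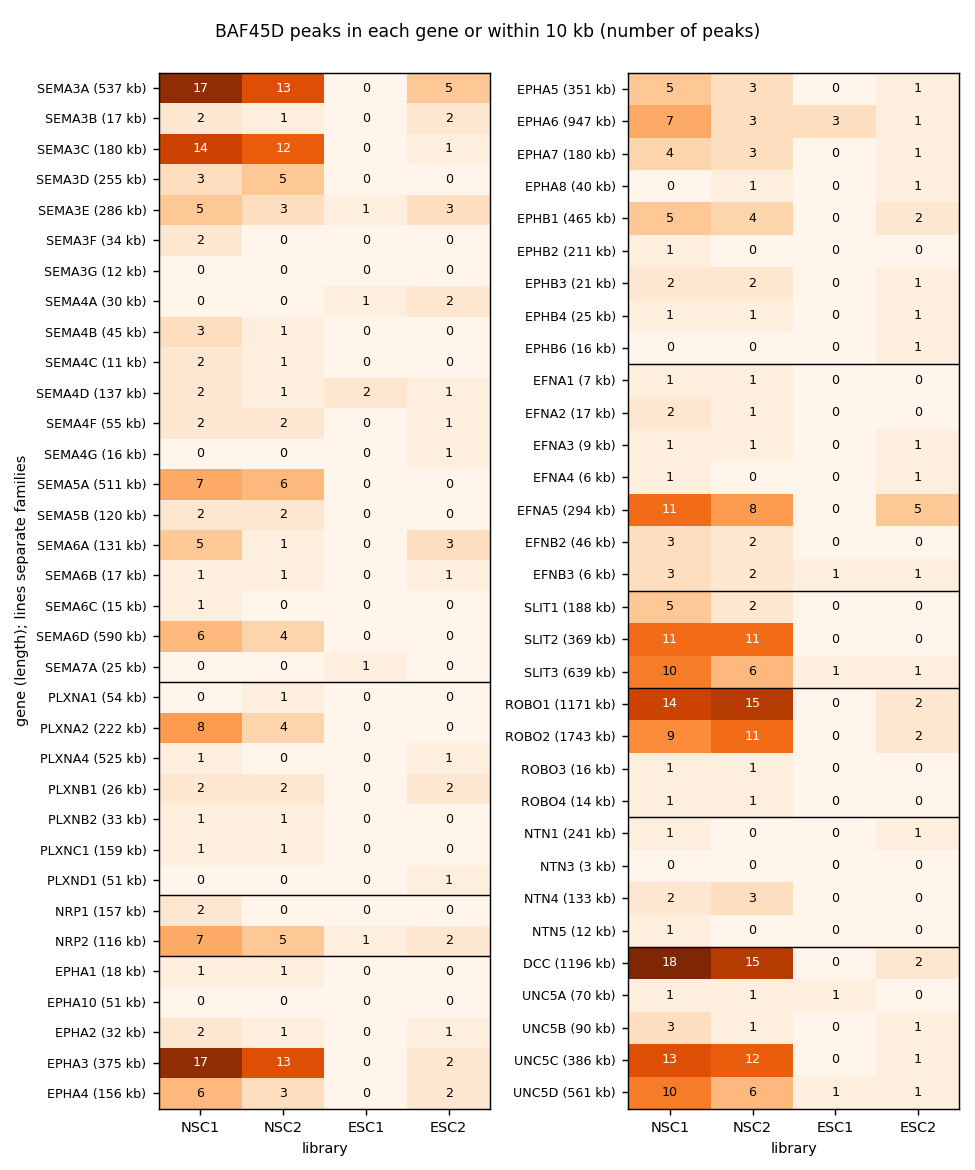
Number of peaks in the locus (gene with 10 kb on either side) of each of the 66 members, by family, in NSC1, NSC2, ESC1 and ESC2. DCC had 18 in NSC1 and 15 in NSC2, a number shared in NSC2 with ROBO1, and SEMA3A and EFNA5 the most in any ESC library (5 in ESC2).

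A few genes held most of the NSC peaks. The 12 members with the most peaks over the 4 libraries held 56.3% and 63.2% of the member peaks in NSC1 and NSC2, against 23.1% and 40.7% in ESC1 and ESC2, on 52.3% of the members' summed length. Most member peaks are NSC peaks, so the choice of these 12 by peak number itself favours a higher share in NSC. DCC, the attractive netrin receptor, had 18 and 15 peaks in NSC1 and NSC2, against 0 in ESC1 and 2 in ESC2. UNC5C had 13 and 12 in NSC1 and NSC2, against 0 and 1, and UNC5D, another repulsive netrin receptor, had 10 and 6, against 1 and 1 in ESC1 and ESC2. In these 3 netrin receptors, chosen for their peak number, each NSC library had more peaks than each ESC library, which did not hold for the other two, UNC5A and UNC5B. UNC5A had 1 and 1 in NSC1 and NSC2, against 1 and 0 in ESC1 and ESC2, and UNC5B had 3 and 1, against 0 and 1.

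SEMA3A, a repellent of sensory and motor axons, had 17 and 13 peaks in NSC1 and NSC2, against 0 in ESC1 and 5 in ESC2. SEMA3C, another secreted class 3 semaphorin, had 14 and 12 in NSC1 and NSC2, against 0 and 1 in ESC1 and ESC2. NRP2 had 7 and 5 in NSC1 and NSC2, against 1 and 2 in ESC1 and ESC2. NRP1, the neuropilin that pairs with SEMA3A, had 2 in NSC1 and none in the other libraries. NRP1 was thus among the members with few peaks. PLXNA2, the plexin with most peaks, had 8 and 4 in NSC1 and NSC2 and 0 in both ESC libraries.

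In the SLIT and ROBO families, SLIT2 had 11 peaks in each NSC library and 0 in each ESC library. SLIT3 had 10 and 6 in NSC1 and NSC2, against 1 and 1 in ESC1 and ESC2. ROBO1 and ROBO2, the main neural SLIT receptors, had 14 and 15 (ROBO1) and 9 and 11 (ROBO2) in NSC1 and NSC2, against 0 in ESC1 and 2 in ESC2 for both genes. Among ephrins and their receptors, EPHA3 had 17 and 13 in NSC1 and NSC2, against 0 and 2 in ESC1 and ESC2, and EFNA5, a ligand of EPHA3, had 11 and 8, against 0 and 5. NTN4, the netrin with most peaks, had 2 and 3 in NSC1 and NSC2 and none in ESC. NTN1, the floor plate netrin, had 1 in NSC1 and 1 in ESC2.

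Of the 12 leading genes, 7 had peaks inside but none at their ends. No gene-end peak was found for 62.1% of all 66 members and 50.5% of all coding genes. The lack of one was thus not particular to the leading genes. DCC, EFNA5, ROBO1, ROBO2, SEMA3A, SEMA3C and SLIT3 had no gene-end peak in any library. In ROBO2 the first peak of either NSC library, at chr3:76532227-76532656, stood 626 kb from the outermost start, at 75906675. The RefSeq promoter of ROBO2, at chr3:76310630-76310929, lay between that start and the peak. In EFNA5 a region at chr5:107672333-107673127, centred 1.79 kb upstream of the start, had 4.46 in NSC1 and 4.47 in NSC2, against 8.22 in ESC2 and no call in ESC1. In SEMA3C a region at chr7:80918923-80919457, centred 3.20 kb downstream of the start, had 18.7 in NSC1 and 12.1 in NSC2, against 2.46 in ESC2 and no call in ESC1. Neither region fell within the 1 kb window.

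**Figure D4:**
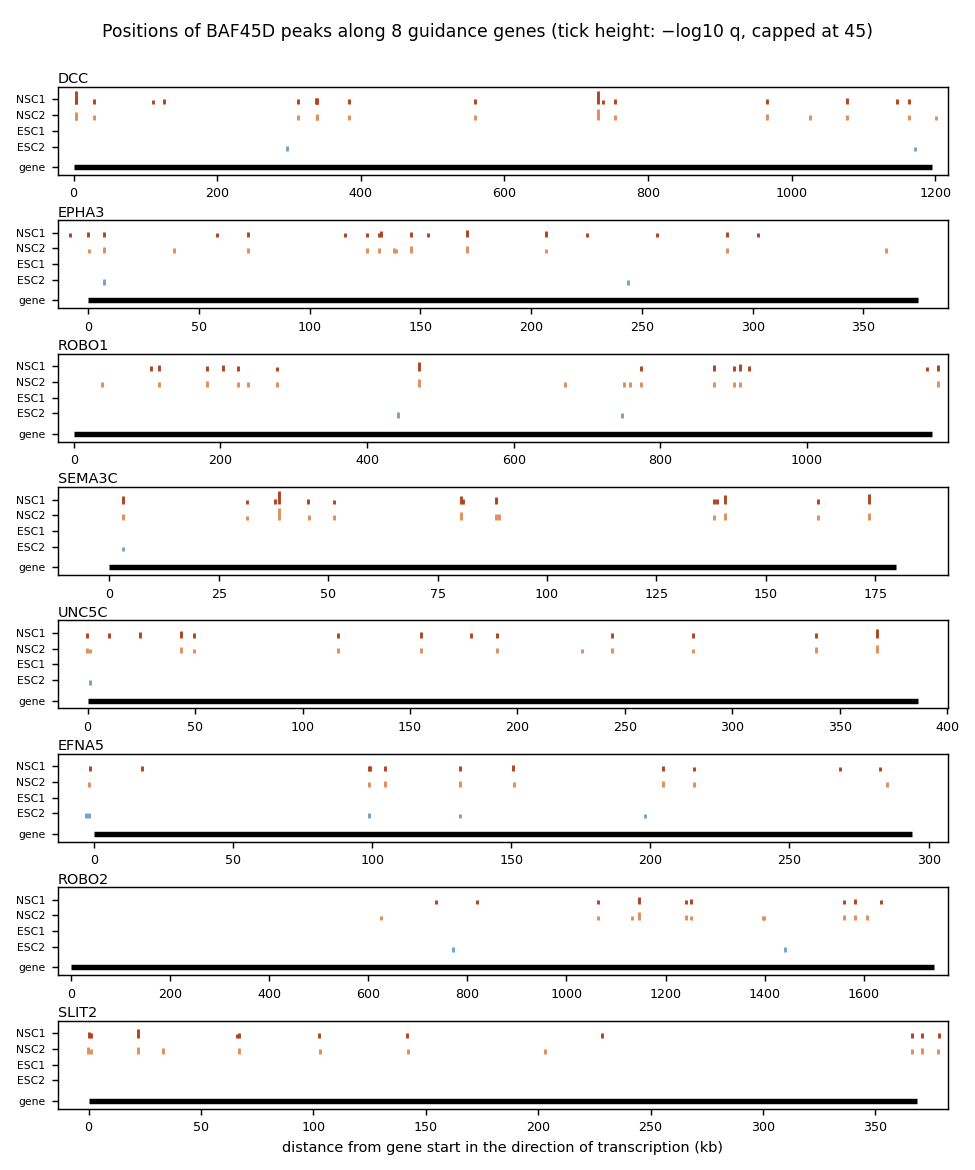
Peaks along DCC, EPHA3, ROBO1, SEMA3C, UNC5C, EFNA5, ROBO2 and SLIT2, with distance from the gene's outermost start in kb on the horizontal axis and 1 row a library (NSC1, NSC2, ESC1, ESC2); the height of a tick is the authors' −log10 q, capped at 45. NSC peaks are spread along the gene bodies, and the ESC rows hold 0 to 5 peaks a gene.

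Peaks per length set some long members apart from others. Over 200 kb, the 21 members had a median of 1.22 NSC peaks per 100 kb of locus (mean of both libraries), beside 0.899 for all 1340 coding genes of that size. Of the 21, 15 lay above the median of those genes and 6 among the densest 10%. EPHA3 had 3.80 per 100 kb, rank 15 of 1340, and UNC5C, EFNA5, SLIT2, SEMA3A and PLXNA2 followed with 3.08, 3.03, 2.83, 2.69 and 2.48. At the other end, EPHB2, NTN1 and PLXNA4 had 0.217, 0.192 and 0.0917. The medians of members from 50 to 200 kb were 1.63 beside 1.13 for all genes of that size, and under 50 kb they were 2.67 beside 1.74.

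**Figure D5:**
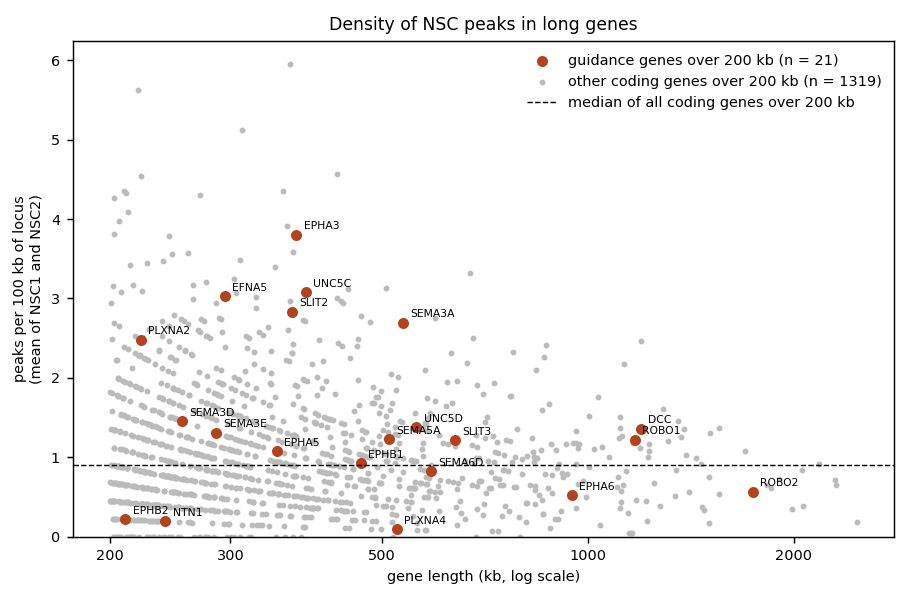
NSC peaks per 100 kb of locus (mean of NSC1 and NSC2) against gene length in kb on a log axis, for the 21 members and the other coding genes over 200 kb, 1340 in all; the dashed line is the median of all of them. EPHA3 (3.80), UNC5C (3.08) and EFNA5 (3.03) stand highest among the members, and PLXNA4 (0.0917) lowest.

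Joining overlapping peaks of the 4 libraries gave 358 regions in member loci, of 43134 on the autosomes. Both NSC libraries and no ESC library had a peak in 135 of them, 37.7%, beside 30.7% of all regions, and the ESC-only regions were 5, 1.40%, beside 1.66%. All 4 libraries met in 1 region, 0.279%, beside 3.3%. Without NSC2 the NSC-only regions were 249, at a −log10 q of at least 5 they were 66, and at equal list length they were 19. Without ESC1 the regions in all remaining libraries were 15, and without ESC2 they were 2. Of the NSC-only regions, 117 lay inside genes, 9 in end windows and 9 in flanks. DCC had 12, SEMA3C and UNC5C had 10 each, ROBO1 and SEMA3A had 9 each, EPHA3 and SLIT2 had 7 each, ROBO2 had 6, and NRP2 and UNC5D had 5 each.

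Few of the regions that both NSC libraries shared had an ESC peak. It was 16 of 151 in member loci, 10.6% (95% Wilson interval 6.63 to 16.5), beside 23.4% of 17283 on all autosomes. Inside member genes it was 8 of 125, 6.40% (3.28 to 12.1), beside 719 of 5978 inside all coding genes and 5.39% inside coding genes over 200 kb. For the 21 members over 200 kb it was 5 of 91, 5.49%. The share inside long members was thus near that inside long genes at large.

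Of the NSC-only regions in member loci, the 6 strongest lay inside genes, outside the 1 kb end windows. In SEMA3C, chr7:80883242-80884047 had 45.1 in NSC1 and 39.7 in NSC2, 38.7 kb from the start. In DCC, chr18:53070468-53071216 had 45.6 and 33.8 at 731 kb from the start, and chr18:52343719-52344266 had 42.9 and 19.9 at 3.80 kb. Those 2 DCC regions lay far apart in a gene of 1196 kb. In SEMA3A, chr7:84490576-84491084 had 33.8 and 31.8 in NSC1 and NSC2, 1.64 kb from the upper gene end, and chr7:84025290-84026004 had 24.6 and 26.5. In SEMA3E, chr7:83438890-83439563 had 34.1 and 16.9, 210 kb from the start. These 6 had no call in either ESC library.

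NSC-only regions also lay close together in some genes. The densest 100 kb held 6 in SEMA3C, 5 in EPHA3 and NRP2, and 4 in DCC, SEMA3A and SEMA5A. They are maxima over windows, without a like count for genes outside the list. NRP2 is 116 kb long, so 100 kb is most of that gene. Some regions were close neighbours, such as chr7:84207065-84207332 and chr7:84207475-84207987 in SEMA3A. In ROBO1 the strongest was chr3:79297167-79297581, with 22.6 in NSC1 and 17.5 in NSC2, and in ROBO2 it was chr3:77051758-77052529, with 19.1 and 22.4. In UNC5C the strongest was chr4:95180871-95181974, with 24.0 and 19.2, near the far end of the gene. In EPHA3 it was chr3:89278334-89278681, with 16.1 and 14.6. The first 3 of these lay over 200 kb from the gene's start, and that of EPHA3 lay 171 kb from it. These regions of ROBO1, ROBO2, UNC5C and EPHA3 were chosen for the text after their values were seen.

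Regions called in ESC alone were few. Of the 5, NRP2 had one at chr2:205680088-205680406, with 3.86 in ESC1 and 6.00 in ESC2, centred 2.25 kb upstream of the gene. The NRP2 start itself carried an NSC-only region, chr2:205682174-205682793, with 5.12 in NSC1 and 4.52 in NSC2. Both cell types thus had peaks at the upstream end of NRP2 at separate places. SEMA4D, the ligand of PLXNB1, had an ESC-only region at chr9:89371808-89372075 with 10.7 in ESC1 and 8.84 in ESC2, SLIT3 at chr5:168727563-168727863 with 3.27 and 2.79, UNC5D at chr8:35272440-35272704 with 3.11 and 2.55, and SEMA3E at chr7:83629281-83629763 with 2.097 and 2.64. The 1 region of all 4 libraries, chr3:97764250-97764885 in the flank of EPHA6, lay at an end of ARL6, with 7.71 and 7.73 in NSC1 and NSC2, against 3.11 and 10.3 in ESC1 and ESC2.

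SLIT2 and SLIT3 also host MIR218-1 and MIR218-2, microRNA genes known from motor neurons. The nearest peak to MIR218-1 lay 47.8 and 73.4 kb away in NSC1 and NSC2, against 456 and 172 kb in ESC1 and ESC2. For MIR218-2 it was 33.2 and 21.3 kb in NSC1 and NSC2, against 40.3 and 40.4 kb in ESC1 and ESC2. No library had a peak at either microRNA. Distances to the nearest peak tend to shrink as a list grows, and the part of list length in them was not tested.

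Other genes of the pathway came from a list of 68 co-receptors, other guidance cues and intracellular effectors, of which 66 were coding and autosomal. A gene-end peak was found at 34 of them in NSC1 (51.5%, beside 43.5% of all genes) and 27 in NSC2 (40.9%, beside 38.7%), against 6 in ESC1 (9.09%, beside 6.8%) and 13 in ESC2 (19.7%, beside 23.2%). Of these 66, 12 were NSC-only at their ends (18.2%, beside 16.4%), 6 were called in all 4 libraries (9.09%, beside 6.01%) and 26 in none (39.4%, beside 50.5%). By locus 15 were NSC-only (22.7%, beside 19.7%). Both NSC libraries had more locus peaks than both ESC libraries in 33 of the 66, beside 30.8% of all genes, while the converse held for 0 (0.967% of all genes). These 66 are long, with a median of 121.6 kb beside 24.5 kb for all coding genes. Over all coding genes, the share with more NSC locus peaks was 23.8% under 50 kb and 67.2% over 200 kb. The difference between the ligand and receptor list and this one was not tested.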

How the data were processed

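The 4 libraries were analysed from the peak list deposited for each. The submitters' processing notes name the tools FastQC, Trimmomatic, BWA (version 0.7.12) and MACS2 and the build hg38. Peaks were called per library with MACS2 2.1.0.20150420 at a q of 0.05 with no control (shift -100 bp, extension 200 bp, regional background 10000 bp), per the file headers. The authors deposited for each peak a pileup signal, a −log10 p, a −log10 q and a fold over the local background. All were set within 1 library, so strength served only to describe and rank the peaks of one list. A library with an untargeted antibody was not analysed here. A list holds no value where no peak was called, so absence means that the threshold was not passed.

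Entries with several summits in 1 interval were joined, the strongest kept, and chromosomes 1 to 22 used. Gene positions and promoter windows were RefSeq GRCh38.p14. Strand came from the promoter table for 56 of 66 members, and the start or far end is the outer gene end on that strand. Peaks overlapping by at least 1 bp were merged into regions. Counts were made with Python 3.11.15 and pandas 2.3.3, and the counting was tested on simulated lists. With 2 libraries against 2, an exact two-sided test cannot give a p below 0.333.

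The members, the other lists, the naming rule and the alternatives were chosen with earlier results of these data known. The rule named members called at an end in at least 2 libraries, the 12 with most locus peaks, each family's leader and members without peaks. Within member loci it also named the 6 strongest NSC-only regions and all ESC-only and all-library regions.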

Additional observations from a re-analysis of the deposited data

How the results depend on the processing

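NSC held more guidance locus peaks than ESC under every setting tried: the ratio of the means, 6.51, was 10.7 at a −log10 q of at least 5, 2.04 at equal list length, 8.10 in gene bodies alone, 5.37 with 50 kb on either side and 6.49 by summits. Under the first of these settings, coding genes over 200 kb gave a ratio of 9.44 and all coding genes gave 4.15. The members' 10.7 rested on 144 and 103 peaks in NSC1 and NSC2, against 1 in ESC1 and 22 in ESC2. It includes members of all lengths, so it is not matched by length to either value. Members NSC-only at gene ends (8) numbered 4 at a −log10 q of at least 5, all of them among the 8 (EFNA1, EPHB4, SEMA5A and SLIT2), and 1 at equal list length. With a window of 2.5 kb they numbered 11, and 1 member was called in all 4 libraries, against 0 at 1 kb. Counting the start alone, added after the data were seen, gave 6. Members NSC-only by locus (18) numbered 7 at equal list length. NSC-only regions (135) numbered 66 at that −log10 q and 19 with lists of equal length. Regions of all 4 libraries (1) numbered 0 at those 2 settings and in gene bodies alone, and 5 with 50 kb on either side. Leaving out 1 library at a time gave 8 to 16 members NSC-only at gene ends, 0 to 4 called in all remaining libraries, 19 to 40 NSC-only by locus, a ratio of 3.97 to 18.0, 136 to 249 NSC-only regions and 1 to 15 regions of all remaining libraries. The cause of these shifts was not tested, though cutting the lists or leaving out a library changes what can be called by construction. No paired analysis was possible because the numbers of the libraries are not said to mark a shared culture and peak presence was counted without a fitted model.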
